A study of Mus musculus with 11 samples.

Results

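The genes described here encode the machinery of COPII and COPI vesicle transport, the traffic of proteins between the endoplasmic reticulum (ER) and the Golgi apparatus. They were taken by name from a list of 60 names, across 3 genotype groups of tumor cDC1s, conventional type 1 dendritic cells. Of these names, 58 are genes of the authors' normalized table, which holds 11118 genes in all, and these 58 are the members. Sec12 is another name of the protein made from Preb, which is a member under that symbol, and Sec16b (at most 0.743 CPM in any pool) did not pass the filter of that table. Levels are given as CPM, the counts of a gene brought to a common pool total, after scaling between pools by the TMM method. Tests were run on the 10951 genes that exceeded 1 CPM in 4 or more pools, and 57 of the 58 members were among them. The exception was Kdelr3, whose values are given with the other KDEL receptors. Fold changes are given on the log2 scale with their standard error (SE).

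RNA-seq was performed on 11 pools of cDC1s sorted from B16-F10 tumors (B16-F10 is a melanoma line of mouse origin), and each pool joined tumor tissue of 2 to 4 mice. Control replicates 1 to 3 were XBP1 fl/fl, and control replicate 4 was XBP1 fl/fl IRE1 fl/fl, all without Cre. The 4 XBP1ΔDC pools were XBP1 fl/fl with CD11c-CRE, and the 3 XBP1ΔDCIRE1truncDC pools were XBP1 fl/fl IRE1 fl/fl with CD11c-CRE. All mice were on a C57BL/6 background, of both sexes and 6 to 14 weeks old. Every group carries the floxed Xbp1 allele. CD11c-CRE is driven by the Itgax promoter and acts in all CD11c-expressing cells, not in cDC1s alone. In cells with Cre, Xbp1 loses exon 2 and makes no XBP1 factor. Where IRE1 is floxed too, Ern1 loses exons 20 and 21, and the shortened IRE1 that remains cannot cut RNA. No group had Cre without a floxed allele, so an effect of Cre itself and an effect of the deletion cannot be told apart. The pools are separate groups of mice, and the p-values measure the spread between them.

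COPII coats form on the ER when the GTPase SAR1 is loaded with GTP, and they bud vesicles that carry newly made proteins forward. Cargo receptors and p24 proteins collect cargo into these vesicles, SNAREs and tethers fuse them with the Golgi, and COPI coats, recruited by the GTPase ARF1, carry escaped ER proteins and the receptors back. IRE1 is an ER stress sensor whose RNase splices Xbp1 mRNA to make the active factor XBP1s, and genes of the secretory pathway are among the known targets of XBP1s in many cell types. In dendritic cells, cDC1s in particular, the pathway is known to be active without an added stressor. The comparisons ask how the transcripts of this machinery differ in tumor cDC1s that lack XBP1, or both XBP1 and the IRE1 RNase.

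The totals ranged from 21089065 to 26843486 counts a pool. Xbp1, counted over the whole gene, had 244, 249, 254 and 271 CPM in controls, 130.1, 152, 161 and 165 CPM in XBP1ΔDC pools and 212, 236 and 179 CPM in XBP1ΔDCIRE1truncDC pools. Against control the log2 fold change was -0.74 ± 0.0973 (SE, adjusted p = 0.00167) and -0.28 ± 0.105 (SE, adjusted p = 0.324). All 7 deleted pools lay below the controls, and counts per gene do not show which exons were left. Creb3l2, the gene of a transcription factor of the secretory pathway, was at -2.33 ± 0.298 (SE, adjusted p = 0.00158) and -2.10 ± 0.328 (SE, adjusted p = 0.0134), and Ern1 at -0.17 ± 0.214 (SE, adjusted p = 0.95) and 0.62 ± 0.227 (SE, adjusted p = 0.322). The 10 cDC1 markers were detected in every pool. Their summed level was 12700 to 14150 CPM in controls, 10660 to 12100 CPM in XBP1ΔDC and 11470 to 12460 CPM in XBP1ΔDCIRE1truncDC. The controls overlapped neither deleted line, and single genes lay wholly below the controls in 3.67% and 5.81% of all genes tested. The largest parts of the sum were Irf8 (3618 to 4491 CPM over the 11 pools) and Naaa (2705 to 4356 CPM). By edgeR 1 of the 10 was called in each line. Of all genes tested, 0.858% were called lower and 0.0365% higher in XBP1ΔDC, and 0.292% and 0.0639% in XBP1ΔDCIRE1truncDC. The 13 markers of cDC2s, monocytes and macrophages summed to 535 to 740 CPM in controls, 558 to 698 CPM in XBP1ΔDC and 594 to 613 CPM in XBP1ΔDCIRE1truncDC. Most of this sum was Ccr2 (433 to 687 CPM over the 11 pools), and the other 12 had medians from 0.913 CPM (Cd209a) to 21.4 CPM (Mgl2), with Ly6c2 at 2.25 to 48.0 CPM. The 8 counted T and NK cell markers summed to 0.402 to 2.07 CPM in controls, 1.03 to 2.42 CPM in XBP1ΔDC and 2.00 to 11.6 CPM in XBP1ΔDCIRE1truncDC. Sums of the neutrophil markers were at most 1.57 CPM in any pool, with Retnlg at 0 in all 11. The 7 melanoma markers summed to 8.96 to 60.9 CPM in controls, 12.2 to 64.7 CPM in XBP1ΔDC and 8.74 to 11.02 CPM in XBP1ΔDCIRE1truncDC, and the 6 fibroblast and endothelial markers to 8.44 to 19.0, 10.7 to 41.0 and 10.5 to 12.9 CPM. The part of these cells in the results below was not tested. In bulk pools, fewer cells with a transcript and less of it per cell cannot be told apart.

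Every called member was lower in the deleted lines than in control, and the called genes were cargo receptors, p24 proteins, a COPI subunit, a SNARE and a COPII-associated protein. A gene was called where its adjusted p was under 0.05 in edgeR's quasi-likelihood test, adjusted over all genes tested. In XBP1ΔDC, 8 of 57 members fell against control (Surf4, Lman1, Lman2, Tmed2, Tmed9, Tmed10, Cope and Bet1), where 0.858% of all genes tested were called lower. In XBP1ΔDCIRE1truncDC, 6 of 57 members fell (Prrc1, Surf4, Tmed2, Tmed9, Tmed10 and Bet1), where 0.292% of all genes were called lower. By edgeR, 0 members rose in either line, where 0.0365% of all genes were called higher in XBP1ΔDC and 0.0639% in XBP1ΔDCIRE1truncDC. DESeq2 and limma-voom also called 0 higher. At an unadjusted p under 0.05, 0 members were higher in either line, against 2.67% and 5.73% of all genes. At an unadjusted p under 0.05, 24 of 57 members were lower in XBP1ΔDC, against 4.95% of all genes, and 22 of 57 in XBP1ΔDCIRE1truncDC, against 5.44% of all genes. Under the study's rule for differential expression, an adjusted p under 0.05 with a fold change above 1.5, 2 members fell in XBP1ΔDC (Surf4 and Bet1, background 0.466%) and 3 in XBP1ΔDCIRE1truncDC (Prrc1, Surf4 and Bet1, background 0.146%).

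The direction was shared well beyond the called genes. In each line 50 of 57 members had a log2 fold change below 0, against 48.8% of all genes in XBP1ΔDC and 50.6% in XBP1ΔDCIRE1truncDC. The median log2 fold change of the members was -0.18 in both lines, and that of all genes tested was 0.005 and -0.003. Every XBP1ΔDC pool lay below every control pool for 21 members, which happened for 3.67% of all genes. Every XBP1ΔDCIRE1truncDC pool lay below every control pool for 22 members, against 5.81% of all genes. For 0 members did all pools of a line lie above all controls, against 1.63% of all genes in XBP1ΔDC and 4.31% in XBP1ΔDCIRE1truncDC. Both comparisons use the same 4 control pools, so their counts are not independent of each other. The heat map of all members by pool shows the values behind these counts.

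**Figure D1:**
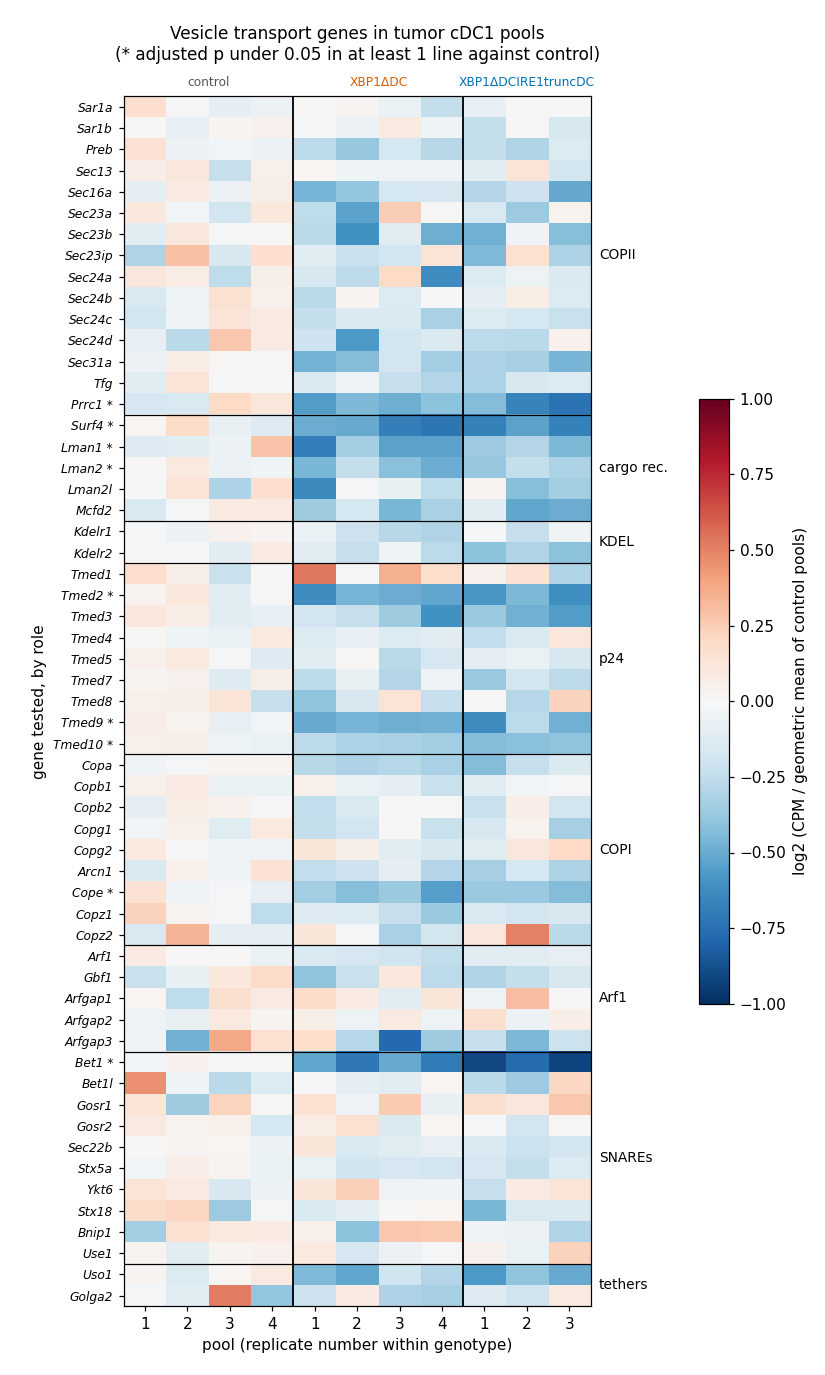
Log2 ratio of each pool's CPM to the geometric mean of the 4 control pools, for the 57 members tested (rows, by role) in the 11 pools (columns). Blue marks values below the control mean and red above, the color scale runs from -1 to 1 on the log2 scale, and an asterisk marks the 9 members called in at least 1 line.

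Summed over the 58 members, the transcripts of this machinery came to 7128 to 7319 CPM in control pools, 5971 to 6255 CPM in XBP1ΔDC pools and 5999.8 to 6343 CPM in XBP1ΔDCIRE1truncDC pools. The deleted lines overlapped each other and neither overlapped the controls. Among the role groups, cargo receptors had the lowest median sums relative to control in both lines, at 899.6 to 1020.1 CPM in controls, 636 to 745 CPM in XBP1ΔDC and 676 to 722 CPM in XBP1ΔDCIRE1truncDC. SNAREs summed to 634 to 709, 635 to 697 and 609.8 to 672 CPM, and here all 3 groups overlapped. A sum is dominated by its most abundant genes and was given no test.

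**Figure D2:**
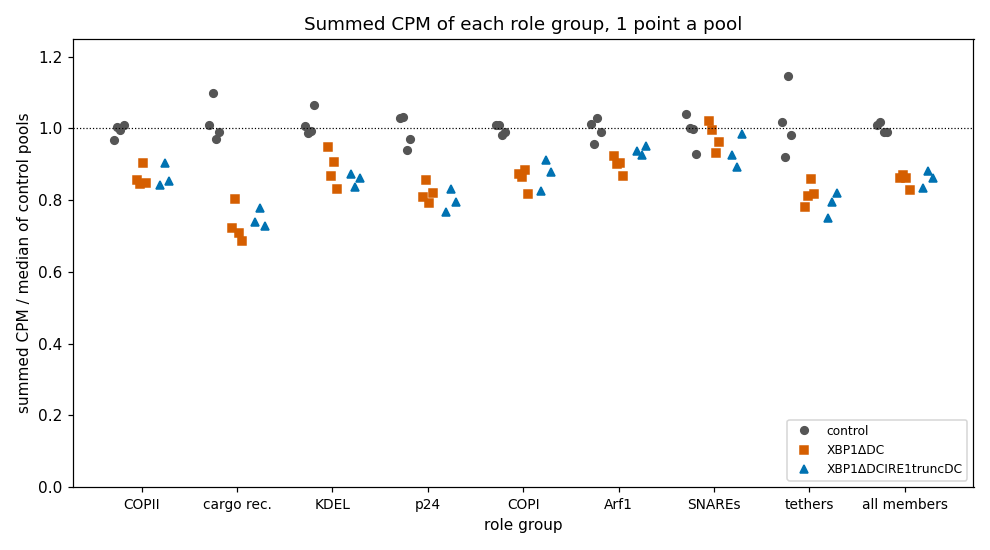
Summed CPM of each role group in each pool, divided by the median of the 4 control pools (vertical axis, from 0), with 1 point a pool and the dotted line at 1. The cargo receptors have the lowest median sums in both deleted lines, though their single pools overlap the range of the p24 and tether pools, and the SNARE sums of all 3 groups overlap.

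The promoters of the members were read for the letters that XBP1 and the related factor ATF6 are known to bind. RefSeq promoter sequences (GRCm38.p6, 250 bases before to 50 after a start site) were at hand for 52 of the 58 members. The 8 letters TGACGTGG, the core of the unfolded protein response element, were found on either strand in 8 of these 52 members (15.4%), against 193 of 27025 genes in the table (0.714%) and 89 of 8472 genes tested here (1.05%). It was held by 7 of the 51 tested members with a promoter there (13.7%). The shorter ACGTGG, which lies within it, was found in 22 members (42.3%, against 13.5% of genes tested), and CCACG, whose reverse complement lies within both, in 39 (75%, against 53.2%). The ER stress response element, CCAAT and CCACG with 9 bases between them, was found in 0 members and in 0.153% of genes tested. A match is a run of letters and not a measured binding site. The windows of 30 bases around each TGACGTGG are shown because they mark the members that carry the full element. They are written 5′ to 3′ on the gene's strand with the match in capitals (its reverse complement CCACGTCA where it lies on the other strand), and the last one ends where the table's sequence ends.
Sec23a, chr12:59011993-59012022, reverse strand: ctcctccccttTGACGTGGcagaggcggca
Sec24d, chr3:123267459-123267488, forward strand: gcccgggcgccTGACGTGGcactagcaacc
Kdelr3, chr15:79516367-79516396, forward strand: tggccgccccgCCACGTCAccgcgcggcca
Copb1, chr7:114254690-114254719, reverse strand: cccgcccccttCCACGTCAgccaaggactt
Copb2, chr9:98563713-98563742, forward strand: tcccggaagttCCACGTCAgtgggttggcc
Arf1, chr11:59228228-59228257, reverse strand: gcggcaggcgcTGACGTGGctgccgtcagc
Gbf1, chr19:46152535-46152564, forward strand: gaggctagttaCCACGTCAgtgagctgaca
Stx5a, chr19:8741422-8741451, forward strand: tggcgcagcagCCACGTCAccgagttagga
Stx5a, chr19:8741452-8741473, forward strand: gtacgtctaggTGACGTGGcgg
None of the 6 called members with a promoter in the table (Surf4, Lman2, Tmed9, Tmed10, Cope and Bet1) was among these 8 genes, and by edgeR 0 of the 7 tested ones was called in either line. Of all genes tested, edgeR called 0.858% lower in XBP1ΔDC and 0.292% in XBP1ΔDCIRE1truncDC. By limma-voom the same 7 also gave 0 calls, and by DESeq2 Arf1 was called in XBP1ΔDC. Their log2 fold changes in XBP1ΔDC were -0.10 for Sec23a, -0.28 for Sec24d, -0.08 for Copb1, -0.11 for Copb2, -0.19 for Arf1, -0.19 for Gbf1 and -0.16 for Stx5a, and the eighth gene, Kdelr3, was not tested. The unadjusted p in XBP1ΔDC was under 0.05 by edgeR for 2 of them, Arf1 and Stx5a, where 4.95% of all genes were lower. In XBP1ΔDCIRE1truncDC it was under 0.05 for Stx5a alone, where 5.44% of all genes were lower.

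The COPII group holds the GTPases SAR1A and SAR1B, their exchange factor PREB, the scaffold SEC16A, the inner coat (SEC23 and the cargo-binding SEC24 proteins), the outer coat (SEC13 and SEC31A), and the associated proteins SEC23IP, TFG and PRRC1. All 15 members had a log2 fold change below 0 in both lines (48.8% of all genes in XBP1ΔDC and 50.6% in XBP1ΔDCIRE1truncDC). By edgeR 0 of 15 was called in XBP1ΔDC, where 7 were lower at an unadjusted p under 0.05 (4.95% of all genes), limma-voom called Sec31a, and DESeq2 called Sec31a and Prrc1. In XBP1ΔDCIRE1truncDC 1 of 15 fell (0.292% of all genes were called lower), and this was Prrc1.

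Prrc1 encodes a protein of ER exit sites that bears on how long the COPII coat persists. It lies at chr18:57354741-57392956, forward strand (GENCODE vM21, GRCm38). It was at 56.7, 57.3, 73 and 68.8 CPM in controls, 43.2, 46.6, 45.4 and 47.9 CPM in XBP1ΔDC and 47.1, 39.9 and 38.1 CPM in XBP1ΔDCIRE1truncDC. All 7 pools of the deleted lines lay below all 4 controls, and the deleted lines overlapped. Against control Prrc1 was at a log2 fold change of -0.48 ± 0.106 (SE, adjusted p = 0.0588) in XBP1ΔDC and -0.62 ± 0.116 (SE, adjusted p = 0.0454) in XBP1ΔDCIRE1truncDC, where it fell by 34.8%. The call in XBP1ΔDCIRE1truncDC was made in 7 of 22 alternative settings (other tools, scalings, filters and fits, and each pool left out), and in 0 of the 11 that left out a pool (adjusted p from 0.0596 to 0.148).

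Sec31a, which builds the outer cage of the coat, was near the threshold in XBP1ΔDC. It was at 167, 184, 176 and 172 CPM in controls, 125, 129, 153 and 137 CPM in XBP1ΔDC and 141, 139 and 126 CPM in XBP1ΔDCIRE1truncDC, with both lines wholly below the controls. Its log2 fold change was -0.36 ± 0.0772 (SE, adjusted p = 0.0535) in XBP1ΔDC and -0.37 ± 0.0839 (SE, adjusted p = 0.102) in XBP1ΔDCIRE1truncDC. Sec16a, which marks the ER exit sites where coats assemble, and Preb, which activates SAR1 there, also lay wholly below the controls in both lines. Their log2 fold changes were -0.30 and -0.33 for Sec16a, and -0.27 and -0.23 for Preb, with adjusted p from 0.187 to 0.382. Of the exons of Preb 21.8% lie over Abhd1 on the other strand, and the use of strand in the counting is not given in the sources used here.

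Paralogs of the coat differed in level, and no test compared their fold changes with each other. The study's list of XBP1s targets holds Sec24d, which lies at chr3:123267455-123365641, forward strand. Sec24d was at 83.8, 73.3, 107 and 93.6 CPM in controls, 76.7, 59.3, 78 and 79.9 CPM in XBP1ΔDC and 73.7, 73.4 and 91 CPM in XBP1ΔDCIRE1truncDC, and the groups overlapped. Its log2 fold change was -0.28 ± 0.13 (SE, adjusted p = 0.658) and -0.17 ± 0.141 (SE, adjusted p = 0.734). The other SEC24 genes had log2 fold changes of -0.19 and -0.12 (Sec24a), -0.09 and -0.05 (Sec24b) and -0.21 and -0.18 (Sec24c). Per kilobase of exon, the control median was 31.6 CPM for Sec24c, 14 for Sec24d, 13.6 for Sec24b and 1.21 for Sec24a, so Sec24c was the most abundant of the 4 in these cells. Of the SEC23 pair, Sec23b (control median 18.2 CPM per kilobase) had log2 fold changes of -0.36 and -0.30, and Sec23a (6.93 CPM per kilobase) -0.10 and -0.16. For Sec23b all XBP1ΔDC pools lay below the controls and the XBP1ΔDCIRE1truncDC pools overlapped them, whereas Sec23a overlapped in both lines. The remaining members had log2 fold changes in XBP1ΔDC and XBP1ΔDCIRE1truncDC of -0.07 and -0.02 (Sar1a), -0.01 and -0.13 (Sar1b), -0.03 and -0.05 (Sec13), -0.11 and -0.20 (Sec23ip) and -0.18 and -0.20 (Tfg).

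Cargo receptors bind folded cargo in the ER lumen or membrane and load it into COPII vesicles. Of the 5 members, 3 fell in XBP1ΔDC (0.858% of all genes were called lower) and 1 in XBP1ΔDCIRE1truncDC (0.292%). All 5 had a log2 fold change below 0 in both lines (48.8% and 50.6% of all genes). The group's median was -0.40 in XBP1ΔDC and -0.37 in XBP1ΔDCIRE1truncDC. Surf4, a receptor for soluble and lipoprotein cargo, was the most abundant of them, with a control median of 118 CPM per kilobase. It lies at chr2:26920040-26933928, reverse strand, and its promoter is shown from 150 bases before to 25 after the start site, with CCACG or its reverse complement in capitals.
Surf4, chr2:26933487-26933661, reverse strand: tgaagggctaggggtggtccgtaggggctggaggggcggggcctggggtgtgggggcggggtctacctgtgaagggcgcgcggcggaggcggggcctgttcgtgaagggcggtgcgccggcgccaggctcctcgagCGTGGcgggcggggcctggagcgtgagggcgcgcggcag
Surf4 was at 399, 446, 374 and 359.9 CPM in controls, 279, 277, 244 and 239 CPM in XBP1ΔDC and 246, 272 and 246 CPM in XBP1ΔDCIRE1truncDC. All 7 deleted pools lay below all 4 controls, and the XBP1ΔDCIRE1truncDC pools lay within the range of the XBP1ΔDC pools. The log2 fold change was -0.60 ± 0.0851 (SE, adjusted p = 0.00287) in XBP1ΔDC and -0.63 ± 0.0929 (SE, adjusted p = 0.01) in XBP1ΔDCIRE1truncDC, so it fell by 34.2% and fell by 35.5%. The call was made in 22 of 22 alternatives in XBP1ΔDC and in 20 of 22 in XBP1ΔDCIRE1truncDC, where it was lost without XBP1ΔDCIRE1truncDC replicate 1 (adjusted p = 0.0625) and without replicate 3 (adjusted p = 0.0523). Surf4 is also on the study's list of XBP1s targets, and 4.4% of its exons lie over Surf2 on the other strand.

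Lman1 and Lman2 encode lectins that recognize sugars on glycoprotein cargo, and LMAN1 works with MCFD2 as the receptor for coagulation factors. Lman1 was at 60.5, 61.5, 63.4 and 80.6 CPM in controls, 41, 52.2, 45.6 and 45.5 CPM in XBP1ΔDC and 51.3, 53.9 and 48.5 CPM in XBP1ΔDCIRE1truncDC. All deleted pools lay below all controls, and control replicate 4, the IRE1 fl/fl pool, stood above the other 3 controls. The log2 fold change was -0.53 ± 0.11 (SE, adjusted p = 0.0427) in XBP1ΔDC and -0.38 ± 0.119 (SE, adjusted p = 0.255) in XBP1ΔDCIRE1truncDC. Without control replicate 4 the value in XBP1ΔDC had an adjusted p of 0.115. The call was made in 9 of 22 alternatives and lost with 9 of the 11 pools left out in turn (all but XBP1ΔDC replicate 2 and XBP1ΔDCIRE1truncDC replicate 2), at adjusted p from 0.0544 to 0.142.

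Lman2, which is on the study's list of XBP1s targets, was at 387, 412, 370.0 and 374 CPM in controls, 281, 326, 289 and 273 CPM in XBP1ΔDC and 296, 327 and 310.0 CPM in XBP1ΔDCIRE1truncDC, again with no overlap with the controls. Log2 fold changes of -0.40 ± 0.0727 (SE, adjusted p = 0.0192) and -0.31 ± 0.0789 (SE, adjusted p = 0.149) were found. The call in XBP1ΔDC was lost without control replicate 1 or 2 and without XBP1ΔDC replicate 1, 3 or 4, at adjusted p from 0.0674 to 0.0814. Its paralog Lman2l had log2 fold changes of -0.24 and -0.24 with overlapping groups. Mcfd2 had -0.33 and -0.37 (adjusted p = 0.379 and 0.268), and its pools lay below all controls in XBP1ΔDC but not in XBP1ΔDCIRE1truncDC. The direct test between the lines gave -0.04 for Mcfd2 (adjusted p = 0.998).

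KDEL receptors return chaperones that end in the KDEL signal from the Golgi to the ER. By edgeR 0 of the 2 tested was called in either line, with 1 lower at an unadjusted p under 0.05 in each (4.95% and 5.44% of all genes). Limma-voom gave 0 calls, and DESeq2 called Kdelr2 in XBP1ΔDCIRE1truncDC. Kdelr1 was at 58.8, 57.2, 61.1 and 60.7 CPM in controls, 56.7, 51.5, 49 and 48.3 CPM in XBP1ΔDC and 59.1, 50.7 and 57.7 CPM in XBP1ΔDCIRE1truncDC, and the log2 fold change was -0.21 ± 0.0838 (SE, adjusted p = 0.528) and -0.09 ± 0.0906 (SE, adjusted p = 0.789). For Kdelr1 the XBP1ΔDC pools lay below the controls and the XBP1ΔDCIRE1truncDC pools overlapped them. Kdelr2 showed the other order, with 68.2, 67.8, 62.9 and 71.6 CPM in controls, 62.4, 57.6, 65.6 and 56.4 CPM in XBP1ΔDC and 50.9, 55 and 50.8 CPM in XBP1ΔDCIRE1truncDC. Its log2 fold change was -0.16 ± 0.0803 (SE, adjusted p = 0.718) and -0.37 ± 0.0875 (SE, adjusted p = 0.111). Kdelr3 had 9, 0, 44 and 55 counts in controls, 25, 20, 0 and 17 counts in XBP1ΔDC and 18, 10 and 13 counts in XBP1ΔDCIRE1truncDC, which is at most 2.45 CPM. A count of 0 allowed up to 0.111 CPM in control replicate 2 and 0.115 CPM in XBP1ΔDC replicate 3 (3 counts a pool, counting error only). These cells therefore held Kdelr1 and Kdelr2 at 31.9 and 37.2 CPM per kilobase in controls, and Kdelr3 at a median of 0.782.

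The p24 proteins, encoded by the Tmed genes, are small membrane proteins that cycle between ER and Golgi in COPII and COPI vesicles, where they sort cargo such as GPI-anchored proteins and help to shape the coat. Of the 9 members, 3 fell in each line (0.858% and 0.292% of all genes were called lower), and these were Tmed2, Tmed9 and Tmed10 in both. The 3 encode the p24β, p24α and p24δ members that assemble with a p24γ protein into complexes. The promoters of Tmed9 and Tmed10 each hold ACGTGG next to the start site, shown in capitals with the other CCACG matches from 150 bases before to 25 after the start.
Tmed9, chr13:55592985-55593159, forward strand: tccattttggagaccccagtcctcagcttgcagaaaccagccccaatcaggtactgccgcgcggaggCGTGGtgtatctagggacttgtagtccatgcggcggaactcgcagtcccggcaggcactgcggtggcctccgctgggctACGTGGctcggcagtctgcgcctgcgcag
Tmed10, chr12:85374693-85374867, reverse strand: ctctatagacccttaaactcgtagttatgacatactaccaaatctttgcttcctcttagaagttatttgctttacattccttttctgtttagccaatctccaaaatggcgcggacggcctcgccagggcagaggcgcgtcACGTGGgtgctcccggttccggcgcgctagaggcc
Tmed2 was at 73, 76.7, 66 and 70.4 CPM in controls, 46.4, 51.7, 50.6 and 50 CPM in XBP1ΔDC and 47.8, 52.3 and 46.6 CPM in XBP1ΔDCIRE1truncDC. On the log2 scale Tmed2 differed from control by -0.53 ± 0.0804 (SE, adjusted p = 0.00553) in XBP1ΔDC and -0.55 ± 0.0876 (SE, adjusted p = 0.0154) in XBP1ΔDCIRE1truncDC, so it fell by 30.5% and fell by 31.7%. The deleted lines overlapped each other and stood well clear of the controls.

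Tmed9 was at 225, 219.9, 203 and 211 CPM in controls, 151, 155, 153 and 154 CPM in XBP1ΔDC and 139.7, 179 and 153 CPM in XBP1ΔDCIRE1truncDC. On the log2 scale Tmed9 differed from control by -0.49 ± 0.0785 (SE, adjusted p = 0.00832) and -0.45 ± 0.0854 (SE, adjusted p = 0.0479). The XBP1ΔDC pools lay close together, whereas the XBP1ΔDCIRE1truncDC pools spread on both sides of them, with replicate 2 nearest to the controls. Tmed10 was at 152, 153, 141 and 139.8 CPM in controls, 122, 118, 117 and 115 CPM in XBP1ΔDC and 108, 109.6 and 111 CPM in XBP1ΔDCIRE1truncDC, with log2 fold changes of -0.31 ± 0.0621 (SE, adjusted p = 0.0351) and -0.42 ± 0.0676 (SE, adjusted p = 0.0173). For Tmed10 the 3 groups did not overlap one another, although the direct test between the lines gave -0.10 ± 0.0672 (SE, adjusted p = 0.967). A processed copy of this gene, Tmed10-ps, is annotated and could share reads with it.

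Across the 22 alternatives the calls in XBP1ΔDC were made in 22 for Tmed2, 22 for Tmed9 and 9 for Tmed10, and in XBP1ΔDCIRE1truncDC in 16, 7 and 16. In XBP1ΔDCIRE1truncDC, Tmed2 and Tmed10 were lost without control replicate 1 or 2 and without XBP1ΔDCIRE1truncDC replicate 1 or 3 (adjusted p from 0.0617 to 0.0860), and with only the 2 groups compared in the fit (0.0834 and 0.114). A fit that blocked on replicate number also ended the calls of Tmed2, Tmed9 and Tmed10 in this line. Among the pools left out, Tmed9 was kept only without XBP1ΔDCIRE1truncDC replicate 2. In XBP1ΔDC, Tmed10 was kept only without XBP1ΔDCIRE1truncDC replicate 2 or 3. By edgeR and limma-voom 0 of the other 6 p24 genes was called, and DESeq2 called Tmed3 in XBP1ΔDCIRE1truncDC. Tmed3, a p24γ gene, had log2 fold changes of -0.34 and -0.47 (adjusted p = 0.243 and 0.107) and lay wholly below the controls in both lines. Tmed7 had -0.16 and -0.27, Tmed5 -0.14 and -0.11, Tmed4 -0.12 and -0.09, and Tmed8 -0.16 and -0.01. Tmed1 was the member with the highest log2 fold change in XBP1ΔDC, 0.27 ± 0.177 (SE, adjusted p = 0.833), and its groups overlapped, with pools from 6.69 to 11.9 CPM. By length Tmed9 was the most abundant p24 gene in controls (62.6 CPM per kilobase), and Tmed8 and Tmed1 were the least (3.56 and 5.53).

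**Figure D3:**
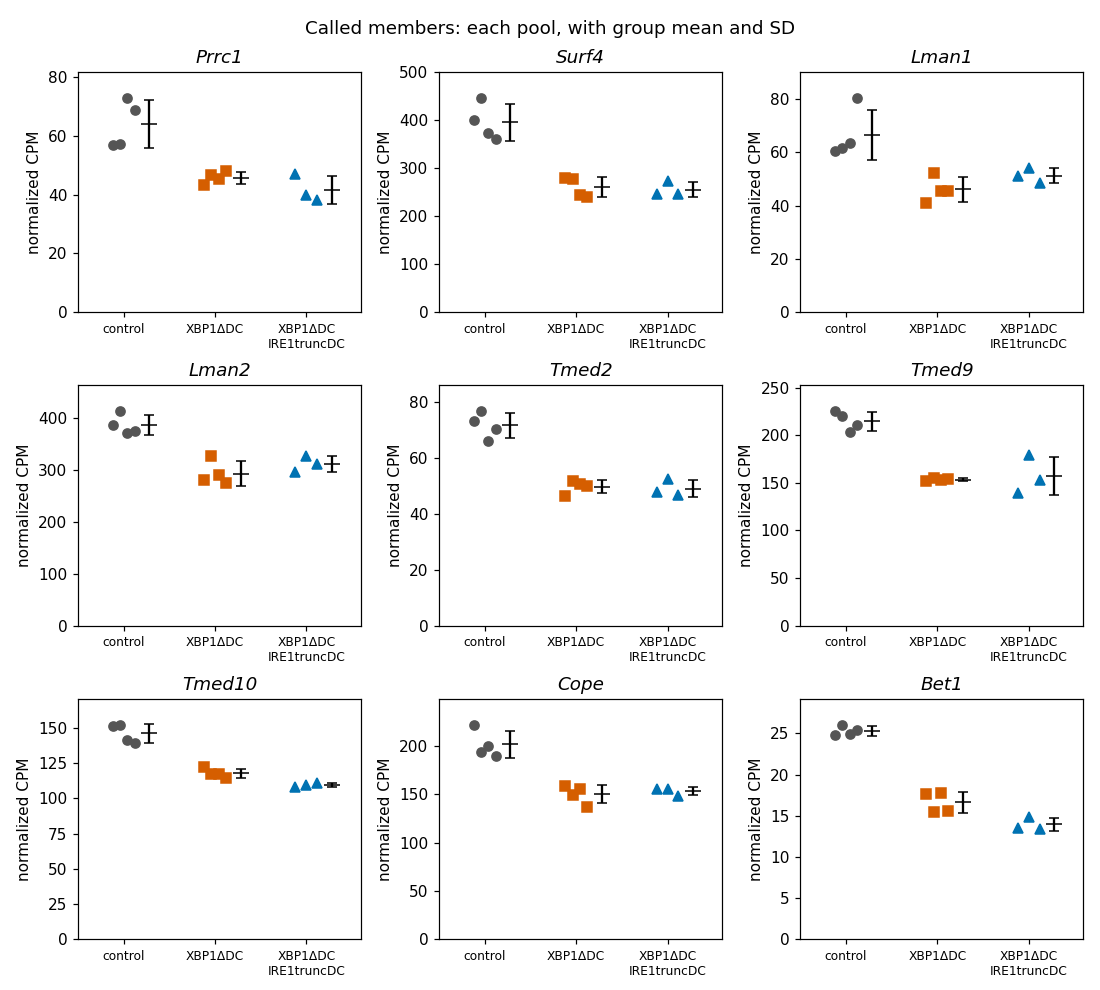
Normalized CPM (vertical axes, from 0) of the 9 members called in at least 1 line, with 1 point a pool and, beside each group, the mean and SD (n = 4, 4 and 3). In all 9 panels every pool of both deleted lines lies below every control pool.

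COPI coatomer is a complex of 7 subunits that coats vesicles returning from the Golgi, and its γ and ζ subunits each come from a pair of genes. By edgeR 1 of the 9 members fell in XBP1ΔDC, Cope (0.858% of all genes were called lower), and DESeq2 called Copa and Cope there. In XBP1ΔDCIRE1truncDC edgeR called 0 of 9 (0.292% of all genes), and 3 were lower at an unadjusted p under 0.05 (5.44% of all genes). In that line limma-voom called 0 and DESeq2 called Cope. Cope encodes the ε subunit. It lies at chr8:70302518-70312993, forward strand, and it was at 223, 194, 200.3 and 190.4 CPM in controls, 158, 149.7, 156 and 137 CPM in XBP1ΔDC and 156, 156 and 149 CPM in XBP1ΔDCIRE1truncDC. Both lines lay below the controls and overlapped each other. The log2 fold change was -0.43 ± 0.0728 (SE, adjusted p = 0.0126) in XBP1ΔDC and -0.40 ± 0.0792 (SE, adjusted p = 0.0556) in XBP1ΔDCIRE1truncDC, so the estimates were close and only one passed the threshold. The call in XBP1ΔDC was lost without control replicate 1 (adjusted p = 0.0543) and without XBP1ΔDC replicate 4 (adjusted p = 0.05004).

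Copa, the α subunit that reads the KKXX retrieval signal, was at 505, 511, 527 and 529 CPM in controls, 427, 417, 425 and 414 CPM in XBP1ΔDC and 383, 441 and 469 CPM in XBP1ΔDCIRE1truncDC, and both lines lay below the controls. Its log2 fold change was -0.30 ± 0.0674 (SE, adjusted p = 0.0645) and -0.27 ± 0.0731 (SE, adjusted p = 0.185). Arcn1, the δ subunit, had -0.22 and -0.27, with the XBP1ΔDCIRE1truncDC pools below all controls. The remaining subunits overlapped the controls in both lines. Their log2 fold changes were -0.08 and -0.05 for Copb1 (β), -0.11 and -0.11 for Copb2 (β′), -0.16 and -0.15 for Copg1 and -0.02 and 0.07 for Copg2 (γ), and -0.22 and -0.17 for Copz1 and -0.11 and 0.14 for Copz2 (ζ). Subunits of 1 complex thus had log2 fold changes from -0.43 to -0.02 in XBP1ΔDC. Per kilobase, Copz1 outweighed Copz2 in controls (68.4 against 2.82 CPM), whereas Copg2 and Copg1 were closer (25.9 and 18.6). The order of Copg2 and Copg1 rests on their annotated exon lengths (5121 and 11011 bases). Before division by length their control medians were 132 and 205 CPM. Copg2 shares 17.8% of its exons with Mest on the other strand.

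Arf1, whose product recruits coatomer to membranes, had the highest level per length of the 58 members, with a control median of 253 CPM per kilobase. It was at 559.5, 527, 528 and 505 CPM in controls, 476, 472, 461 and 447 CPM in XBP1ΔDC and 491, 490.4 and 501 CPM in XBP1ΔDCIRE1truncDC. The 3 groups did not overlap, with the XBP1ΔDCIRE1truncDC pools between the others. Even so the log2 fold change was -0.19 ± 0.0569 (SE, adjusted p = 0.249) in XBP1ΔDC, -0.10 ± 0.0615 (SE, adjusted p = 0.605) in XBP1ΔDCIRE1truncDC and 0.09 ± 0.0614 (SE, adjusted p = 0.967) between the lines. The exchange factor gene Gbf1 had -0.19 and -0.24. The genes of the GTPase-activating proteins, which end ARF1 signaling, had 0.06 and 0.09 (Arfgap1), 0.01 and 0.06 (Arfgap2) and -0.31 and -0.33 (Arfgap3), all with overlapping groups. By edgeR 0 of the 5 genes was called in either line, with 1 (Arf1) lower at an unadjusted p under 0.05 in XBP1ΔDC (4.95% of all genes) and 0 in XBP1ΔDCIRE1truncDC (5.44%). Limma-voom gave 0 calls and DESeq2 called Arf1 in XBP1ΔDC. Arfgap2 shares 33.4% of its exons with a gene on the other strand.

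SNAREs pull a vesicle and its target membrane together. BET1, GOSR2, SEC22B and STX5 form the set that fuses COPII vesicles, and BNIP1, USE1, STX18 and SEC22B the set that receives COPI vesicles at the ER. Of the 10 members only Bet1 was called, in both lines, by edgeR, DESeq2 and limma-voom alike. By edgeR 0.858% of all genes were called lower in XBP1ΔDC and 0.292% in XBP1ΔDCIRE1truncDC. Bet1 lies at chr6:4076899-4086972, reverse strand, and its promoter holds CCACG on each strand, in capitals.
Bet1, chr6:4086906-4087080, reverse strand: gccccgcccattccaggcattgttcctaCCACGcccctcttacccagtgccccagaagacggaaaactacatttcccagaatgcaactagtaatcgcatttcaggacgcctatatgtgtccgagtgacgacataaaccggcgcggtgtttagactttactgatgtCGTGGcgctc
Bet1 was at 24.8, 26.1, 25 and 25.4 CPM in controls, 17.7, 15.5, 17.8 and 15.6 CPM in XBP1ΔDC and 13.5, 14.9 and 13.4 CPM in XBP1ΔDCIRE1truncDC, from 308 to 704 counts a pool. The 3 groups did not overlap. Its log2 fold change was -0.61 ± 0.104 (SE, adjusted p = 0.0126) in XBP1ΔDC and -0.86 ± 0.115 (SE, adjusted p = 0.00551) in XBP1ΔDCIRE1truncDC. It fell by 34.3% and fell by 45%, and the latter was the lowest log2 fold change of the 57 members. The direct test between the lines gave -0.26 ± 0.114 (SE, unadjusted p = 0.0426, adjusted p = 0.931, edgeR), so a difference between the lines did not pass the threshold. In XBP1ΔDC the call was made in 18 of 22 alternatives. Among the pools left out it was lost without control replicate 2 (adjusted p = 0.0550), XBP1ΔDC replicate 2 (0.0530) and XBP1ΔDC replicate 4 (0.0537). It was also lost in a fit that blocked on replicate number (0.0736). In XBP1ΔDCIRE1truncDC it was kept in 21 of 22 alternatives and lost in that blocked fit (0.0589).

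The partners of BET1 had log2 fold changes nearer to 0. Gosr2 was at 309, 296, 300.4 and 256 CPM in controls, 305, 321, 263 and 294 CPM in XBP1ΔDC and 286, 256 and 292 CPM in XBP1ΔDCIRE1truncDC, with log2 fold changes of 0.03 and -0.06. Sec22b had -0.05 and -0.18, and Stx5a -0.16 and -0.18 with an adjusted p of 0.63 and 0.382. Stx5a lay wholly below the controls in both lines, and Sec22b in XBP1ΔDCIRE1truncDC alone. Such a separation was found for 3.67% of all genes in XBP1ΔDC and 5.81% in XBP1ΔDCIRE1truncDC. At an unadjusted p under 0.05 in edgeR, 2 of the 10 SNAREs (Bet1 and Stx5a) were lower in each line (4.95% and 5.44% of all genes). The paralog Bet1l had -0.07 and -0.15, Gosr1 0.07 and 0.17, and Ykt6 0.07 and 0.00. Among the SNAREs at the ER, the values were -0.07 and -0.26 for Stx18, 0.05 and -0.14 for Bnip1 and -0.03 and 0.08 for Use1. The median over the 10 SNAREs was -0.04 in XBP1ΔDC and -0.15 in XBP1ΔDCIRE1truncDC.

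Tethers catch vesicles before fusion. Uso1 encodes p115, a tether on the study's list of XBP1s targets, and was at 103, 91.6, 102 and 107 CPM in controls, 74.5, 70.2, 87.9 and 82.4 CPM in XBP1ΔDC and 67.6, 76.2 and 71.2 CPM in XBP1ΔDCIRE1truncDC. Both lines lay below all controls. The log2 fold change of Uso1 was -0.36 ± 0.0878 (SE, adjusted p = 0.111) and -0.50 ± 0.0958 (SE, adjusted p = 0.0519), and the latter passed the threshold in 3 of 22 alternatives, DESeq2 among them. Golga2, the gene of the Golgi tether GM130, had -0.22 and -0.11 with overlapping groups. By edgeR and limma-voom 0 of the 2 tethers was called, with 1 (Uso1) lower at an unadjusted p under 0.05 in each line (4.95% and 5.44% of all genes), and DESeq2 called Uso1 in both.

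**Figure D4:**
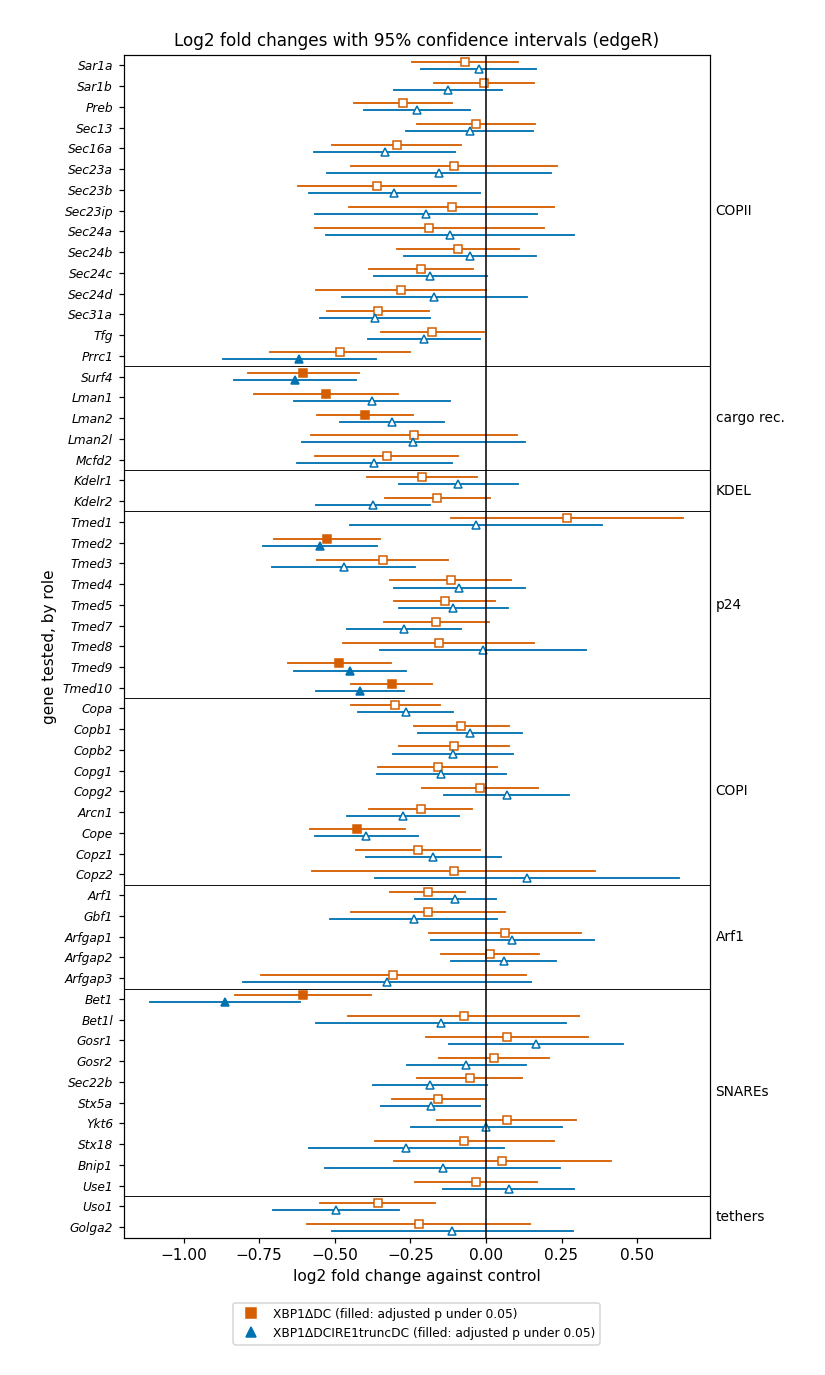
Log2 fold change against control (horizontal axis) of the 57 members tested, by role, with 95% confidence intervals from edgeR, for XBP1ΔDC (squares) and XBP1ΔDCIRE1truncDC (triangles). Filled symbols passed an adjusted p of 0.05, and 50 of 57 estimates lie below 0 in each line.

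The lines were also compared directly, which asks whether the added loss of the IRE1 RNase moved these transcripts. By PCR of Xbp1 splicing, the study saw signs of a more active IRE1 RNase in XBP1ΔDC tumor cDC1s than in controls. It saw no splicing in XBP1ΔDCIRE1truncDC. The XBP1ΔDC line may thus not stand for usual RNase activity here. By edgeR 0 of 57 members was called, where 0.0731% of all genes (8 genes) were called higher in XBP1ΔDCIRE1truncDC. DESeq2 and limma-voom also called 0. At an unadjusted p under 0.05 in edgeR, 2 members (Kdelr2 and Bet1) had a lower level in XBP1ΔDCIRE1truncDC, against 2.5% of all genes, and 0 had a higher level, against 2.79% of all genes. The difference was -0.21 ± 0.0873 (SE, adjusted p = 0.931) for Kdelr2 and -0.26 ± 0.114 (SE, adjusted p = 0.931) for Bet1. The median log2 difference of the members was -0.003. Every XBP1ΔDCIRE1truncDC pool lay below every XBP1ΔDC pool for 3 of 57 members (5.26%: Kdelr2, Tmed10 and Bet1), against 2.96% of all genes. Every XBP1ΔDCIRE1truncDC pool lay above for 1 member (1.75%: Arf1), against 3.11% of all genes. The 95% intervals of the difference were -0.23 to 0.17 for Surf4, -0.21 to 0.16 for Tmed2 and -0.08 to 0.26 for Lman2, and wider for Prrc1 (-0.38 to 0.12) and Lman1 (-0.10 to 0.41). Lman1, Lman2 and Cope, called by edgeR in XBP1ΔDC alone, and Prrc1, called by edgeR in XBP1ΔDCIRE1truncDC alone, are therefore not shown to differ between the lines.

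Of other genes in traffic between ER and Golgi, 71 were tested as a wider list (TRAPP and COG tethering complexes, Golgi matrix proteins, Rab GTPases, cargo receptors of the ERGIC family and others). In XBP1ΔDC 1 of them (1.41%) was called lower by edgeR, where 0.858% of all genes were, and 8 (11.3%) were lower at an unadjusted p under 0.05 against 4.95% of all genes. In this line limma-voom called 2 (Ergic3 and Gorasp2) and DESeq2 3 (Mia3, Ergic3 and Gorasp2). The gene called by edgeR was Ergic3, a receptor that cycles between ER and Golgi, with a log2 fold change of -0.46 ± 0.0723 (SE, adjusted p = 0.0067). In XBP1ΔDCIRE1truncDC 0 were called by edgeR, with 12 (16.9%) lower at an unadjusted p under 0.05 against 5.44% of all genes. There limma-voom called 0 and DESeq2 called 2 (Ergic3 and Trappc4), and by edgeR Ergic3 was at -0.29 ± 0.0783 (SE, adjusted p = 0.185). Between the lines edgeR and limma-voom called 0 of the 71 and DESeq2 called Nsf. By edgeR the difference was -0.56 ± 0.12 (SE, adjusted p = 0.191) for Nsf and 0.18 ± 0.0778 (SE, adjusted p = 0.931) for Ergic3. The median log2 fold change of the wider list was -0.03 in XBP1ΔDC and -0.05 in XBP1ΔDCIRE1truncDC, and 42 and 49 of 71 genes were below 0.

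The floxed Xbp1 and Ern1 alleles lie on chromosome 11, at 5520659 to 5525893 and 106394650 to 106487852 (GENCODE vM21). The 8 members on this chromosome were Ykt6, Tmed4, Sec24a, Sar1b, Arf1, Gosr1, Copz2 and Gosr2. By edgeR and limma-voom 0 of the 8 was called, and Arf1 alone had an unadjusted p under 0.05 and was called by DESeq2, both in XBP1ΔDC. Of all genes tested, edgeR called 0.858% lower in XBP1ΔDC and 0.292% in XBP1ΔDCIRE1truncDC. At an unadjusted p under 0.05, 4.95% and 5.44% of all genes were lower. Ykt6 and Tmed4, the nearest to Xbp1, had 0.07 and -0.12 in XBP1ΔDC, and Gosr2, the nearest to Ern1, -0.06 in XBP1ΔDCIRE1truncDC.

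In control cells the level per kilobase of exon ranged over the members from 0.782 CPM (Kdelr3) to 253 CPM (Arf1), with a median of 20.7 CPM. The called genes were spread along this range, from Prrc1, Bet1 and Lman1 (5.26, 6.75 and 7.08 CPM per kilobase) through Tmed10 and Tmed2 (25.2 and 28.4) to Lman2, Cope, Tmed9 and Surf4 (48, 58.9, 62.6 and 118). Abundant genes such as Gosr2 (91.4) and Copz1 (68.4) were not called.

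**Figure D5:**
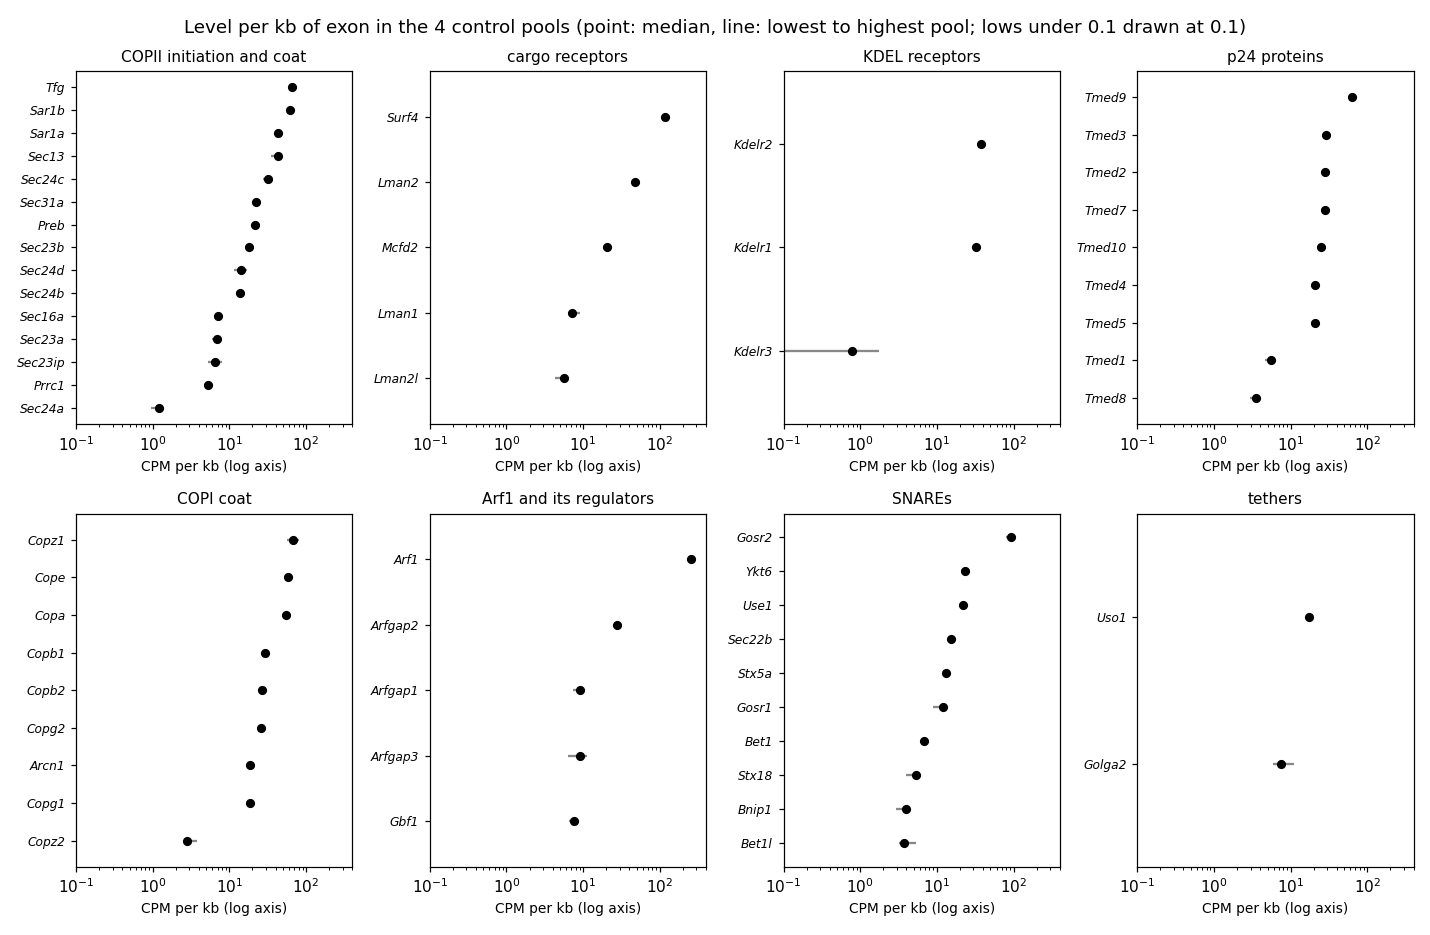
Normalized CPM per kilobase of exon (horizontal log axes) of the 58 members in the 4 control pools, in 1 panel a role group, with the median as a point and the lowest to highest pool as a line. Arf1 and Surf4 stand highest and Kdelr3 lowest.

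The number of called members depended on single pools. In XBP1ΔDC it was 8 with all pools, 3 without XBP1ΔDC replicate 4, 4 without control replicate 1 or control replicate 2, and 5 without XBP1ΔDC replicate 1, with Surf4, Tmed2 and Tmed9 called each time. In XBP1ΔDCIRE1truncDC it was 6 with all pools, 2 without control replicate 1 or 2, and 1 (Bet1) without XBP1ΔDCIRE1truncDC replicate 1 or 3. Past 1.5-fold as well, 0 members were called in XBP1ΔDC without control replicate 2 or XBP1ΔDC replicate 4 and 1 without XBP1ΔDC replicate 3, and 1 (Bet1) was called in XBP1ΔDCIRE1truncDC without control replicate 2 or XBP1ΔDCIRE1truncDC replicate 1 or 3.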

How the data were processed

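The authors trimmed single-end reads with Trimmomatic 0.39, mapped them to mm10 with STAR 2.7.3a and counted them per gene with HTSeqCount (tools and builds per the labels and the study's methods). They deposited a raw count table and a table of log2 CPM values after TMM scaling, whose genes are, by their counts, those above 1 CPM in at least 3 pools, although the study's methods state at least 4. The annotation and strand setting of the counting are not given in the sources used here.

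From the counts, genes above 1 CPM in at least 4 of the 11 pools were tested with edgeR 4.0.16 (R 4.3.3), with TMM scaling, the quasi-likelihood test and the 3 groups in 1 fit. P-values were adjusted by Benjamini-Hochberg over all 10951 genes tested. Standard errors were computed from the fold change and F statistic. Levels per kilobase divide by all annotated exon bases of a gene (GENCODE vM21), whichever of its transcripts the cells make. DESeq2 1.42.0, limma 3.58.1, other scalings and filters, a fit of 2 groups, a replicate block and leaving out each pool were alternatives.

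Members and gene lists were chosen with earlier results of these data known. Per-pool values were given for members past the threshold in any comparison, those on the study's list of XBP1s targets and, in a role group with no call, the member of smallest p in XBP1ΔDC. Sec31a, Kdelr2, Copa, Gosr2 and Kdelr3 were added after their values were seen. Depth was 21089065 to 26843486 counts a pool, and no pool was left out. The B and plasma cell markers are not reported here.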

Additional observations from a re-analysis of the deposited data

Results flagged for a closer look

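In 2 of 26 groups of 4 pools looked at, 1 pool stood far from the other 3, and chance alone does so in about 1 group in 20. Sec24d in XBP1ΔDC replicate 2 was at 59.26 CPM, below the other 3 XBP1ΔDC pools at 76.7, 78.0 and 79.9 CPM. Lman1 in control replicate 4 was at 80.56 CPM, above the other 3 controls at 60.5, 61.5 and 63.4 CPM. Control replicate 4 is the one XBP1 fl/fl IRE1 fl/fl control.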

How the results depend on the processing

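Against control, all 13 members followed by name had a log2 fold change below 0 in both lines under every one of the 22 alternatives. These 13 include the 9 called members, all lower in the main fit, and the alternatives reuse the same pools. A stable sign was therefore likely from the start. Calls depended more on the setting. With DESeq2 the called members numbered 13 in XBP1ΔDC, the 8 called by edgeR included, and 12 in XBP1ΔDCIRE1truncDC. With only the 2 groups compared in the fit, 2 were called in XBP1ΔDCIRE1truncDC. With scaling by library size alone, 0 members passed the 1.5-fold rule in XBP1ΔDC. Leaving out each pool in turn gave 3 to 8 calls in XBP1ΔDC and 1 to 5 in XBP1ΔDCIRE1truncDC, and 0 to 2 and 1 to 3 past 1.5-fold. Between the lines, where nothing was called, signs turned with the setting for Cope (-0.0018 by library size alone, -0.003 with the replicate block, -0.0105 to 0.0561 leaving out a pool), Surf4 (-0.0819 to 0.0069 leaving out a pool), Tmed9 (-0.0682 to 0.1164) and Tmed2 (-0.0762 to 0.0094). The cause of these shifts was not tested. Low counts limited Kdelr3, which was not tested.

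The pools share only replicate numbers and come from different mice. Across genes, the deviations of same-numbered pools from their group means had a mean correlation of 0.0979 in XBP1ΔDC against control, 0.00353 in XBP1ΔDCIRE1truncDC against control and -0.221 between the lines (from -0.26 to -0.142, against 0.0738 for other pairs). With the replicate block, 5 members were called in XBP1ΔDC and 1 in XBP1ΔDCIRE1truncDC, and 1 in each passed 1.5-fold. The calls lost with the block were Lman1, Tmed10 and Bet1 in XBP1ΔDC (adjusted p = 0.0888, 0.113 and 0.0736 in edgeR) and, in XBP1ΔDCIRE1truncDC, those of every called member but Surf4 (from 0.0589 for Bet1 to 0.199 for Prrc1).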
